A study of Mus musculus with 157 samples.

Results

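The mRNAs described here are those encoded by the mitochondrial genome and carried in the table of counts along polysome gradients of mouse B cells. Rows were taken by gene name from a list of 10 mitochondrial mRNAs, of which 7 were present among the 19600 genes of the table: mt-Nd1, mt-Nd2, mt-Nd4, mt-Nd5 and mt-Nd6, which encode membrane subunits of respiratory complex I, mt-Cytb, the cytochrome b of complex III, and mt-Co1, the catalytic subunit of complex IV. Data for mt-Co2, mt-Co3 and mt-Atp6 were not analysed here. Chromosome M had 16 rows in all, the other 9 being 2 rRNAs and 7 tRNAs.

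All 3 groups were primary B cells from spleens of the C57BL/6Babr mouse strain, activated with lipopolysaccharide (LPS, 10 µg/ml). The LPS group had 48 h of LPS and no further agent, and for the LPS+ET group the labels give 48 h of LPS and 4 h of etoposide at 20 µM, a topoisomerase II poison that breaks DNA. For the LPS+ET+KU group they give 47 h of LPS, 1 h of KU55933 at 10 µM, an inhibitor of the DNA damage kinase ATM, and 4 h of etoposide. Whether the hours of LPS run on through those of etoposide is not settled by the labels. Cells were held with cycloheximide, lysed with Triton X-100 and spun, and the cytoplasmic supernatant was separated on sucrose gradients into monosomes, which took up fractions 4 to 7, then light polysomes up to fraction 10 and heavy polysomes from 11 to 16. Each treatment had 4 gradients of 13 fractions, named here by the codes LUL15 to LUL18 in their column names. A code is called a pool below, though the labels do not say what it stands for. Nothing in the labels says that the gradients came from separate animals, so each p-value measures the spread between gradients. The comparison of whole profiles is the exception, as its p-values measure the spread between the libraries of single fractions.

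Mitochondrial DNA is transcribed inside the organelle as long precursors from both strands, and the tRNAs that lie between most of the mRNAs are cut out to free them. The mRNAs receive short poly(A) tails and are translated by the ribosomes of the mitochondrion, which are a separate kind from the cytoplasmic ribosomes that form the polysomes of a sucrose gradient and that cycloheximide arrests. Their position in these gradients is therefore no measure of how well cytoplasmic ribosomes translated them. Of the 7, mt-Nd6 alone lies on the minus strand.

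The libraries counted 3′ ends, so where each mRNA was counted decides what its row holds. The rows of mt-Nd1, mt-Nd4 and mt-Cytb each rested on 1 counted site, which held 100% of the row's tags. It lay 27, 0 and 0 bases before the annotated end. The authors listed 5, 4 and 8 sites for these genes, and the rows leave out the sites they did not count. For mt-Nd2, mt-Nd5, mt-Nd6 and mt-Co1 they listed 6, 10, 3 and 6 sites and counted 6, 9, 3 and 6. The contrast between the rows thus rests in part on which sites were counted. The last 30 bases of these mRNAs are shown because they carry all of those tags. The counted base is in capitals, the build is GRCm38 and the strand is plus.

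mt-Nd1, chrM:3678-3707: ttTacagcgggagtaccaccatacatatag

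mt-Nd4, chrM:11515-11544: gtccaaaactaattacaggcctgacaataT

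mt-Cytb, chrM:15259-15288: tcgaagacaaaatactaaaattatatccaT

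The annotated mt-Nd4 (1378 bases, chrM:10167-11544) and mt-Cytb (1144 bases, chrM:14145-15288) end on that T, whose stop codon is completed by the poly(A) tail. The annotated mt-Nd1 (957 bases, chrM:2751-3707) ends on a full stop codon, as does mt-Nd2 below. No site was counted at the end of mt-Nd2 (1038 bases, chrM:3914-4951), and the nearest large site, chrM:4953 with 554400 tags, stood in the row of the adjoining tRNA mt-Tw (chrM:4950-5016), whose first bases overlap the end of mt-Nd2. The 2 windows below are shown because a transcript of mt-Nd2 that ends at that base and a fragment of mt-Tw cannot be told apart in these counts. The counted base of mt-Tw is in capitals.

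mt-Nd2 end, chrM:4922-4951, plus strand: ctacccctagccccccaactaattacctag

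mt-Tw start, chrM:4950-4979, plus strand: agaAgtttaggatatactagtccgcgagcc

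The remaining 4 mRNAs were counted at sites inside their bodies. The row of mt-Nd2 had 6 sites, with the largest at chrM:4712 (33.1% of its tags), 239 bases before the annotated end. The row of mt-Nd5 (1824 bases, chrM:11742-13565) had 9 sites, the largest at chrM:13501 (31.3%), 64 bases before the end. The row of mt-Co1 (1545 bases, chrM:5328-6872) had 6 sites, the largest at chrM:6039 (30.7%), 833 bases before the end, and none of its sites lay within 498 bases of the end. The row of mt-Nd6 (519 bases, chrM:13552-14070, minus strand) had 3 sites, with 70.4% of its tags at chrM:13748 and 20.5% at its annotated end. Windows of 30 bases around the largest site of each are shown, each 5′ to 3′ on the strand of its gene, with the counted base in capitals.

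mt-Nd2, chrM:4693-4722, plus strand: cttaccaaaatgaattatcAtcacagaact

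mt-Nd5, chrM:13482-13511, plus strand: aaaggcttaattaaattgtActttatatca

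mt-Nd6, chrM:13738-13767, minus strand: ttaatttgtgtgcttaattAttatgatgaa

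mt-Co1, chrM:6020-6049, plus strand: ccagcatctgttctgattcTttgggcaccc

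Libraries were primed with oligo-dT, which can also pair with A-rich sequence inside a transcript. Over the 24 sites of these 4 rows, the 10 bases downstream of the counted base held 0 to 5 A where they lay inside the gene, with a median of 3, and the median over all positions of the genes was also 3. The 3 mRNAs counted at or near their 3′ ends are called the end-counted mRNAs below and the other 4 the body-counted mRNAs, in whose rows true 3′ ends, degraded molecules and internal priming cannot be told apart. No other GENCODE transcript, of 141730 searched, held an exact match to the last 60 bases of any of the 7 mRNAs. Counted sites further from the end, as most sites of the body-counted mRNAs are, were not searched.

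**Figure D1:**
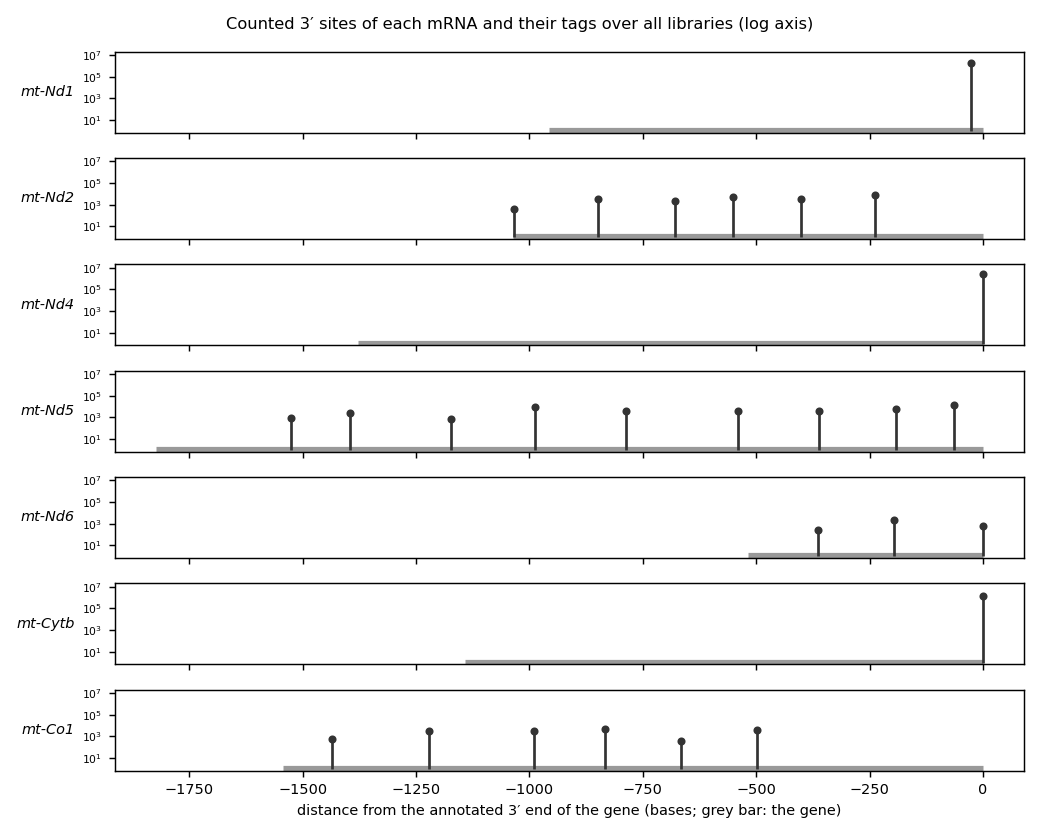
Counted 3′ sites of the 7 mitochondrial mRNAs, plotted by distance in bases from the annotated 3′ end, with the number of tags on a log axis. mt-Nd1, mt-Nd4 and mt-Cytb each have 1 counted site at or near the end, of 1374272 tags or more. The counted sites of mt-Nd2, mt-Nd5, mt-Nd6 and mt-Co1 lie along the gene with 275 to 14341 tags each. Sites that the authors listed but did not count are not drawn.

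The 156 libraries of fractions 4 to 16 held 14724 to 4170688 counts (median 811932), and 6 of them held under 50000. Fraction 4 was among the shallowest, with 14724 to 419646 counts in LPS, 32104 to 218780 under LPS+ET and 321208 to 1024262 under LPS+ET+KU. Equal concentrations of RNA from each fraction went into the libraries, so a library total does not measure the mRNA of its fraction, and levels are given as CPM, the counts of a gene for every 1000000 counts of the same library or of the summed libraries named. All 8 B cell marker genes were present, with summed levels of 31237 to 133225 CPM per gradient, against 0.917 to 8.08 CPM for the 5 T cell markers present. The 6 myeloid markers present summed to 25.2 to 156 CPM, the 3 plasmablast markers present to 68.8 to 293 CPM, and the 1 erythroid or platelet marker present of 6 to at most 3.49 CPM. The 3 nuclear-retained RNAs present summed to 29.4 to 51.1 CPM in LPS, 33.8 to 73.5 CPM under LPS+ET and 46.6 to 156 CPM under LPS+ET+KU, and their part in the results below was not tested. In bulk samples such as these, fewer cells of a type and less RNA per cell cannot be told apart.

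The end-counted mRNAs were abundant and the body-counted mRNAs were not. Because each tag stands for 1 primed molecule end, CPM was not divided by gene length, and the levels compare how often each row was primed. In LPS, summed over fractions 4 to 16, mt-Nd4 stood at 18420.4 ± 3270.5 CPM (mean ± SD, n = 4 gradients), mt-Nd1 at 13936 ± 4408 CPM and mt-Cytb at 9927 ± 2066 CPM. The next mRNA, mt-Nd5, was counted at 257 ± 58.1 CPM, so that the mean of mt-Cytb was 38.6-fold higher. Below it came mt-Nd2 at 113 ± 32.1 CPM, mt-Co1 at 66.5 ± 28.2 CPM and mt-Nd6 at 11.4 ± 4.19 CPM.

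The order of the means was the same in all 3 treatments. Neighbours whose gradients overlapped in LPS were mt-Nd4 and mt-Nd1, mt-Nd1 and mt-Cytb, and mt-Nd2 and mt-Co1, while the gaps between mt-Cytb and mt-Nd5, between mt-Nd5 and mt-Nd2 and between mt-Co1 and mt-Nd6 were wider than the spread between gradients. Under LPS+ET+KU the ranges of mt-Nd5 and mt-Nd2 overlapped too. All chromosome M rows together took 3.58% to 5.71% of the counts of a gradient in LPS, 2.28% to 5.93% under LPS+ET and 0.476% to 5.97% under LPS+ET+KU.

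The low value of the last range came from a gradient that stood apart from its group, LPS+ET+KU of pool LUL16. It held mt-Nd1 at 1263 CPM, against 11987 to 18752 CPM in the other 3 gradients of the treatment, and its level was 13.6-fold below their median. The same comparison gave 13.8-fold for mt-Nd4, 12.2-fold for mt-Cytb, 5.11-fold for mt-Nd6, 4.99-fold for mt-Nd2, 3.42-fold for mt-Nd5 and 2.18-fold for mt-Co1. The folds were thus 12.2 to 13.8 for the end-counted mRNAs and 2.18 to 5.11 for the body-counted mRNAs. Over 8000 genes with a mean of at least 100 counts per gradient, folds computed with 1 CPM added had a median of 0.94, and 31 genes (0.388%) were at least 5-fold lower. On that scale mt-Nd4, mt-Nd1 and mt-Cytb took ranks 6, 7 and 9, and mt-Nd2 and mt-Nd6, at ranks 32 and 37, lay outside the 31. The LPS+ET gradient of the same pool was also the lowest of its group for the end-counted mRNAs, at 8009.9 CPM for mt-Nd1, 6517 CPM for mt-Nd4 and 4024 CPM for mt-Cytb. Each result below is therefore also given without pool LUL16 wherever leaving it out changed a call.

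**Figure D2:**
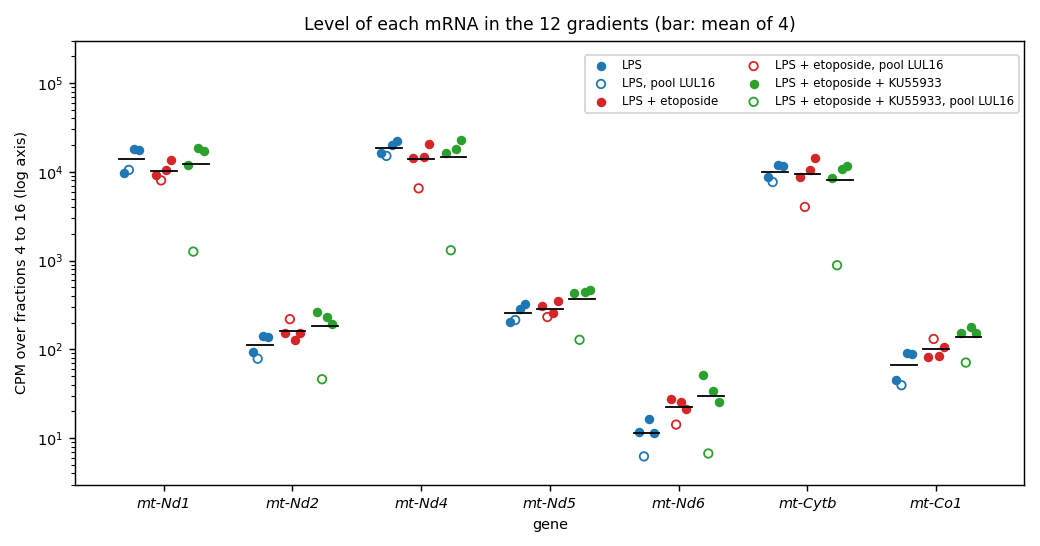
Level of each mitochondrial mRNA in every gradient, as CPM over fractions 4 to 16 on a log axis, by treatment, with a bar at the mean of 4 gradients and open circles for pool LUL16. The 3 end-counted mRNAs lie above the 4 body-counted mRNAs in every gradient, and the LPS+ET+KU gradient of pool LUL16 lies below the rest of its group.

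The first question was whether the abundance of these mRNAs in ribosome fractions changed upon etoposide treatment, with or without ATM inhibition. No member was called in the sums of fractions 4 to 16. By gradient, LUL15 to LUL18 in this order here and below, mt-Nd4 was at 16317, 15122, 20074 and 22168 CPM in LPS, at 14339, 6517, 14710.4 and 20732 CPM under LPS+ET and at 16393, 1308, 18019 and 22857 CPM under LPS+ET+KU. mt-Nd1 was at 9742, 10517, 17879.8 and 17605 CPM in LPS, at 9331, 8009.9, 10449 and 13564 CPM under LPS+ET and at 11987, 1263, 18752 and 17189 CPM under LPS+ET+KU. For both mRNAs the ranges of the 3 treatments overlapped, and pools LUL17 and LUL18 were above LUL15 and LUL16 in LPS.

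For mt-Cytb the gradients read 8680.3, 7676, 11864 and 11487 CPM in LPS, 8757, 4024, 10600.1 and 14157 CPM under LPS+ET and 8627, 887, 10806 and 11782 CPM under LPS+ET+KU, again overlapping. By edgeR's quasi-likelihood test over 12755 genes, 0 of the 7 mRNAs passed an adjusted p of 0.01 in LPS+ET versus LPS, where 12.7% of all genes did, and 0 of 7 passed in LPS+ET+KU versus LPS, where 10.7% did. For LPS+ET+KU versus LPS+ET, 0 of 7 passed beside 0.455% of all genes. The first pair of contrasts share the LPS gradients. At an unadjusted edgeR p under 0.05, mt-Nd6 (0.0160) and mt-Co1 (0.0153), both in LPS+ET+KU versus LPS, were the members that passed across these contrasts. DESeq2 also called 0 of 7 in each.

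The end-counted mRNAs had negative log2 fold changes in both contrasts with LPS, smaller than their errors. In LPS+ET versus LPS these were -0.54 ± 0.56 (SE) for mt-Nd1, -0.50 ± 0.59 for mt-Nd4 and -0.19 ± 0.57 for mt-Cytb. For LPS+ET+KU versus LPS they were -0.28 for mt-Nd1, -0.44 for mt-Nd4 and -0.41 for mt-Cytb. Among the body-counted mRNAs all values in LPS+ET+KU versus LPS were positive, at 0.58 for mt-Nd2, 0.40 for mt-Nd5, 1.25 ± 0.45 for mt-Nd6 (edgeR adjusted p = 0.0629) and 0.95 ± 0.34 for mt-Co1 (edgeR adjusted p = 0.0611). The median over the 7 mRNAs was 0.40 on the log2 scale, against 0.09 over all genes tested. The sums weight each fraction by its library total. Fractions 4 to 7 held 13.68% to 17.64% of a gradient's counts in LPS and 28.45% to 34.03% under LPS+ET+KU. Such a shift gives those fractions more weight in the summed levels, and its part in the fold changes was not tested. With equal weight for fractions, mt-Nd2 averaged 221 CPM in LPS and 248.8 CPM under LPS+ET+KU, and mt-Nd5 384.6 and 441 CPM. For mt-Nd6 the means were 43.6 and 48.4 CPM, and for mt-Co1 91.3 and 160.2 CPM.

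The summed levels of mt-Co1 and mt-Nd6 by gradient show in which pools they differed. mt-Co1 was at 44.9, 39.5, 92.1 and 89.5 CPM in LPS, at 82.2, 131, 84.8 and 107 CPM under LPS+ET and at 151, 71.0, 179.8 and 155 CPM under LPS+ET+KU. mt-Nd6 was at 11.6, 6.23, 16.5 and 11.3 CPM in LPS, at 27.9, 14.2, 25.3 and 21.2 CPM under LPS+ET and at 51.8, 6.71, 34.3 and 25.3 CPM under LPS+ET+KU. Within every pool both mRNAs were higher under LPS+ET+KU than in LPS, by margins that ranged from small in pool LUL16 (6.71 against 6.23 CPM for mt-Nd6) to large in pool LUL15. With the pool as a replicate block both passed in LPS+ET+KU versus LPS, mt-Co1 at 0.99 (edgeR adjusted p = 0.00986) and mt-Nd6 at 1.08 (edgeR adjusted p = 0.00497), where the block raised the calls among all genes to 28.1%. Without pool LUL16 only mt-Nd6 passed, at 1.38 (edgeR adjusted p = 0.00201), beside 14% of all genes.

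For mt-Nd2 and mt-Nd5 the LPS+ET+KU gradient of pool LUL16 lay below the LPS gradient of its pool, while in the other 3 pools it lay above. mt-Nd2 was at 92.7, 78.5, 141 and 139 CPM in LPS, at 151, 219, 126 and 155 CPM under LPS+ET and at 264, 46.1, 229.8 and 195 CPM under LPS+ET+KU. mt-Nd5 was at 205, 214, 282 and 327 CPM in LPS, at 305, 231, 254 and 352 CPM under LPS+ET and at 431, 128, 438 and 471 CPM under LPS+ET+KU. For both, 3 of the 4 LPS+ET+KU gradients lay above every LPS gradient and that of pool LUL16 lay below them all. No member had a level over all fractions without overlap between treatments, while 14.5% of 8000 genes were higher and 11.5% lower without overlap in LPS+ET versus LPS, 16.2% and 11.4% in LPS+ET+KU versus LPS, and 4.44% and 4.14% between the etoposide groups. The fold changes of LPS+ET versus LPS were 0.42 ± 0.41 for mt-Nd2, 0.04 ± 0.34 for mt-Nd5, 0.86 ± 0.45 for mt-Nd6 and 0.50 ± 0.34 for mt-Co1.

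Along the gradient the 7 mRNAs sedimented above the polysomes that held most other mRNAs. Each was summarised by its mean fraction, the average fraction number weighted by CPM, which in LPS had a median of 10.7 over 8000 genes. The LPS means were 6.80 ± 0.215 for mt-Nd1, 6.46 ± 0.477 for mt-Nd2, 7.41 ± 0.370 for mt-Nd4, 6.88 ± 0.181 for mt-Nd5, 6.21 ± 1.78 for mt-Nd6, 7.83 ± 0.328 for mt-Cytb and 6.87 ± 0.313 for mt-Co1. Between 10 genes (for mt-Nd6) and 225 genes (for mt-Cytb) of the 8000 had a lower mean fraction. In LPS the monosome fractions held on average 50.8% (mt-Cytb) to 77.4% (mt-Nd2) of the CPM of a mitochondrial mRNA, against a median of 20.1% over all genes, and the heavy polysome fractions held 8.83% (mt-Nd4) to 14.1% (mt-Nd6), against 55.2%. The mitochondrial rRNA rows mt-Rnr1 and mt-Rnr2 had LPS mean fractions of 5.88 and 5.79, below the mean of each mRNA, and were highest in fraction 4 in every LPS gradient.

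The members did not share a single profile. In the 4 LPS gradients mt-Nd1 was highest in fraction 6, 5, 6 and 5, and so was mt-Co1. mt-Nd4 and mt-Cytb were highest in fraction 7, 7, 8 and 8, at the border of monosomes and light polysomes. mt-Nd2 was highest in fraction 4, 5, 4 and 4, and mt-Nd5 and mt-Nd6 both in fraction 4, 7, 4 and 4.

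At their LPS peaks the abundant mRNAs made up a large part of a library. mt-Nd1 averaged 54761 ± 27203 CPM in fraction 5 and 2592 ± 666 CPM in fraction 13. mt-Nd4 averaged 56890.5 ± 7263 CPM in fraction 7 and 3357 ± 1159 CPM in fraction 13, and mt-Cytb 27925 ± 8608 CPM in fraction 8 and 2193 ± 823 CPM in fraction 13. All 3 means were lowest in fraction 13 and higher again in fraction 16, where mt-Nd1 stood at 5792 ± 917 CPM and mt-Nd4 at 5116 ± 626 CPM. mt-Co1 fell from 266 ± 122 CPM in fraction 6 to 10.7 ± 4.38 CPM in fraction 13.

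The fraction 4 values of the scarce mRNAs rested on few counts. mt-Nd6 averaged 419.6 ± 346 CPM in fraction 4 of LPS, from 7 to 12 counts per library, and 12.9 ± 4.41 CPM in fraction 5, from 3 to 10 counts. mt-Nd2 averaged 1121 ± 663 CPM in fraction 4, from 26 to 161 counts. The early mean fractions of mt-Nd6 and mt-Nd2 in LPS therefore lean on the shallowest libraries.

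**Figure D3:**
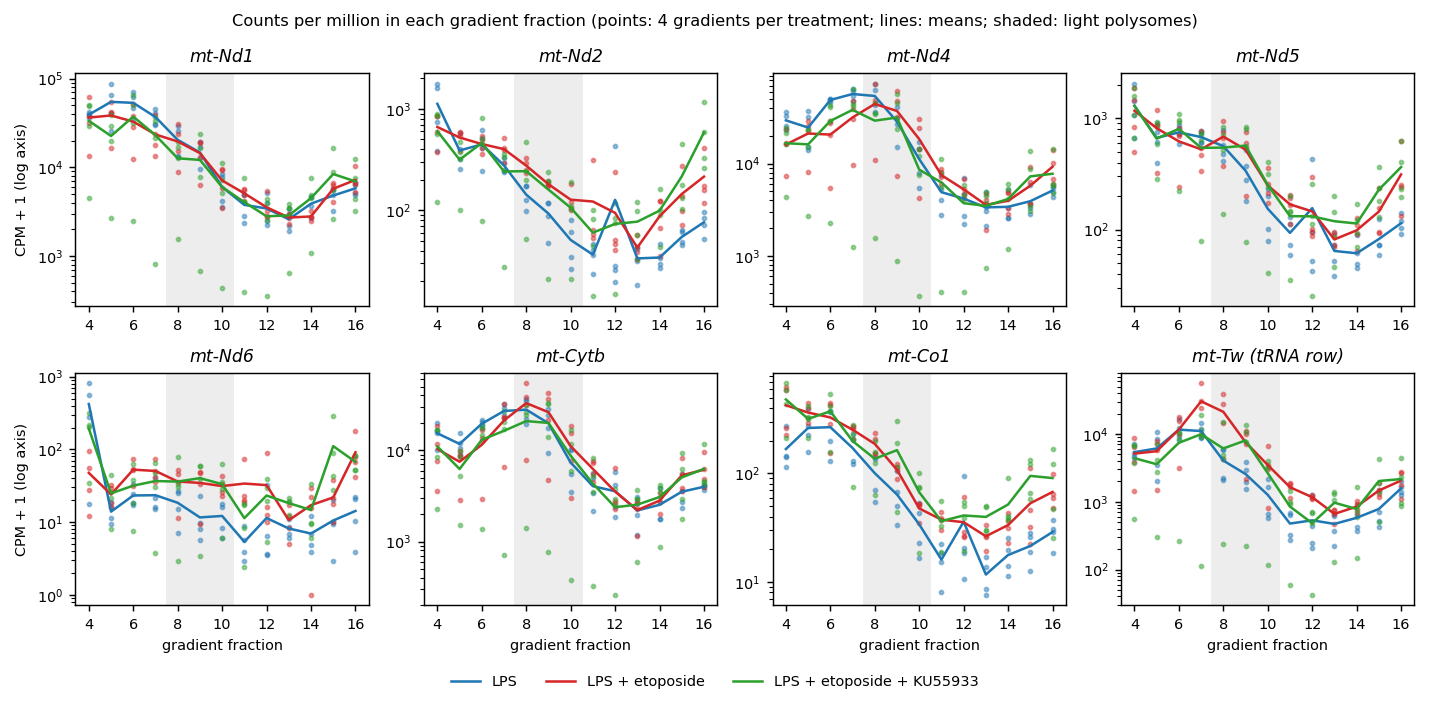
CPM plus 1 on a log axis by gradient fraction 4 to 16 for the 7 mitochondrial mRNAs and mt-Tw, with a point for each of the 4 gradients of a treatment, a line through the means and the light polysome fractions shaded. Levels are high in the monosome fractions and low in fractions 11 to 14, with mt-Nd4 and mt-Cytb peaking later than mt-Nd1 and mt-Co1.

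Some differences in position between members recurred in every gradient, whatever the treatment. mt-Cytb had a later mean fraction than mt-Nd1, mt-Nd4, mt-Nd5 and mt-Co1 in 12 of 12 gradients, and mt-Nd4 was later than mt-Nd1 and mt-Co1 in 12 of 12. The mean difference was 1.45 fractions between mt-Cytb and mt-Co1 and 1.03 fractions between mt-Nd4 and mt-Co1. Other orders held in part: mt-Nd4 was later than mt-Nd5 in 11 of 12 gradients, mt-Nd5 later than mt-Co1 in 11 of 12, mt-Nd1 later than mt-Co1 in 9 of 12 and mt-Nd1 later than mt-Nd5 in 4 of 12. mt-Nd6 and mt-Nd2 kept no such order, and mt-Nd6 was later than mt-Cytb in 8 of 12 gradients.

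Ratios within a library, which no scaling between libraries can alter, showed the same. The ratio of mt-Nd4 to mt-Nd1 counts in LPS rose from 0.464 ± 0.115 (n = 4 gradients) in fraction 5 to 2.76 ± 0.481 in fraction 8, its highest fraction in 4 of 4 LPS gradients (3.34, 2.70, 2.17 and 2.85). The ratio of mt-Cytb to mt-Nd1 rose from 0.247 ± 0.0914 to 1.42 ± 0.201 between the same fractions. Both steps were far wider than the spread between gradients.

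**Figure D4:**
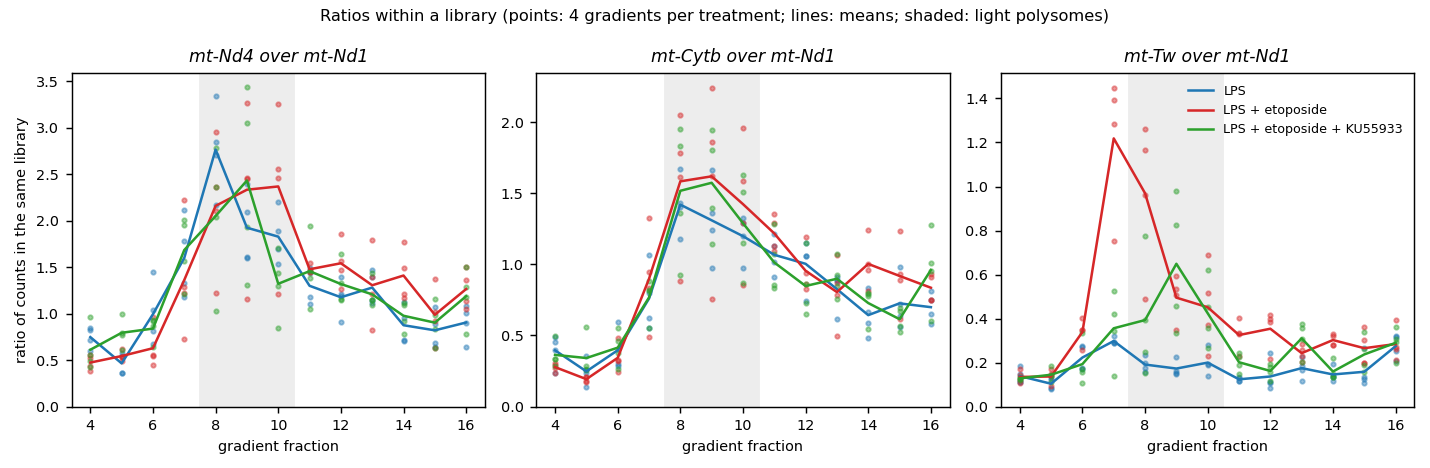
Ratios of counts within single libraries, mt-Nd4 to mt-Nd1, mt-Cytb to mt-Nd1 and mt-Tw to mt-Nd1, by gradient fraction and treatment, with points for gradients and lines for means. In LPS the mt-Nd4 ratio climbs from 0.464 in fraction 5 to 2.76 in fraction 8, and in fraction 7 the mt-Tw ratio is 0.289 to 0.319 in LPS and 0.754 to 1.45 under LPS+ET.

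Summed over all fractions, the ratio of mt-Nd4 to mt-Cytb was lower under LPS+ET than in LPS. It was 1.88, 1.97, 1.69 and 1.93 in LPS and 1.64, 1.62, 1.39 and 1.46 under LPS+ET, without overlap, and 1.90, 1.47, 1.67 and 1.94 under LPS+ET+KU, which overlapped LPS. Among 7999 genes, 0.863% had a ratio to mt-Cytb that was lower without overlap in this comparison. In fraction 8 the ratio was 1.94 ± 0.0885 in LPS, 1.36 ± 0.0608 under LPS+ET and 1.34 ± 0.298 under LPS+ET+KU. Other fractions ran the other way, with LPS+ET above LPS on average in fraction 5 (2.82 ± 0.148 and 2.02 ± 0.639), fraction 12 (1.66 ± 0.416 and 1.17 ± 0.0462) and fraction 16 (1.51 ± 0.0927 and 1.28 ± 0.124). These ratios were chosen after their values had been seen and carry no test.

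The tRNA row mt-Tw, whose counted base adjoins the end of mt-Nd2, also changed against mt-Nd1. Its summed ratio to mt-Nd1 was 0.175, 0.181, 0.179 and 0.225 in LPS, 0.429, 0.291, 0.509 and 0.636 under LPS+ET and 0.378, 0.146, 0.284 and 0.248 under LPS+ET+KU. The LPS and LPS+ET gradients did not overlap, and neither did they for mt-Nd2, mt-Nd5, mt-Nd6 and mt-Co1, beside 15.3% of all genes whose ratio to mt-Nd1 was higher without overlap. The level of mt-Tw itself, 1704, 1905, 3195 and 3969.7 CPM in LPS and 4004, 2335, 5314 and 8631 CPM under LPS+ET, was not called over all fractions (log2 fold change 0.81 ± 0.69, edgeR adjusted p = 0.460). Against mt-Nd2 the summed ratio of mt-Tw was 18.4 to 28.5 in LPS, 10.7 to 55.8 under LPS+ET and 4.00 to 23.2 under LPS+ET+KU. These ranges overlapped. The row of mt-Tw was singled out after its values had been seen.

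The second question was how the mRNAs divided between heavy polysomes and monosomes. All 7 were lower in heavy polysomes than in monosomes in each treatment by edgeR's quasi-likelihood test on class sums with a term for each gradient, with adjusted p from 3.66e-20 to 3.19e-10 in LPS. Of 11034 genes tested, 22.9% were called lower in LPS, 22.7% under LPS+ET and 25.4% under LPS+ET+KU. The LPS log2 differences were -4.33 ± 0.21 for mt-Nd1, -3.92 ± 0.20 for mt-Nd2, -4.15 ± 0.25 for mt-Nd4, -3.84 ± 0.21 for mt-Nd5, -2.43 ± 0.26 for mt-Nd6, -3.27 ± 0.24 for mt-Cytb and -4.40 ± 0.21 for mt-Co1, against a median of 0.11 over all genes. Only 34 genes had a lower value than mt-Co1 and 38 a lower value than mt-Nd1, while 602 lay below mt-Nd6. Under LPS+ET the values ran from -4.08 (mt-Co1) to -2.12 (mt-Nd6) and under LPS+ET+KU from -3.63 (mt-Co1) to -2.04 (mt-Nd6).

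**Figure D5:**
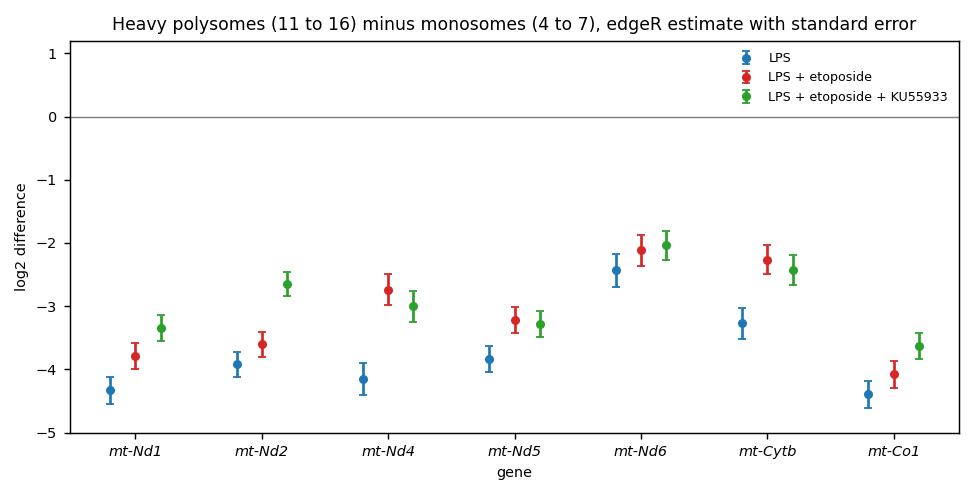
Log2 difference between heavy polysomes and monosomes for each mitochondrial mRNA in LPS, LPS+ET and LPS+ET+KU, as fitted by edgeR, with SE bars. All values lie below 0, and the values of each mRNA under etoposide lie above its LPS value.

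The fitted difference was smaller in both etoposide groups than in LPS for every member, and its change passed the test for 1 member in each contrast with LPS. In log2 of heavy polysome CPM over monosome CPM, mt-Nd4 stood at -3.71, -4.15, -3.29 and -3.14 in LPS, at -2.47, -1.47, -2.25 and -2.45 under LPS+ET and at -2.26, -1.95, -2.55 and -2.66 under LPS+ET+KU. Every etoposide gradient, with or without the inhibitor, thus lay above every LPS gradient. The fitted change in LPS+ET versus LPS was 1.41 ± 0.32 (edgeR adjusted p = 0.00281), where 1.63% of all genes were called in this direction. In monosomes mt-Nd4 was at 43618, 47580.5, 40232 and 48924 CPM in LPS and at 26385, 7412, 22799.9 and 32716 CPM under LPS+ET, lower without overlap (as for 11.7% of genes), though the test of monosomes alone did not call it (-0.93 ± 0.60). In heavy polysomes it read 3339, 2675, 4117 and 5543 CPM in LPS and 4762, 2667, 4779.7 and 6008 CPM under LPS+ET, which overlapped.

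The call for mt-Nd4 depended on the fit. It was lost without the term for the gradient (1.14 ± 0.97, adjusted p = 0.694), where only 0.172% of all genes were called, and when the LPS gradient of pool LUL15 or of pool LUL16 was left out, and it held without all of pool LUL16 (0.89, adjusted p = 0.0044, beside 6.16% of genes called in either direction). Without the LPS+ET+KU gradient of pool LUL16, mt-Cytb was called as well (1.04, adjusted p = 0.00967). Shares of all genes called by edgeR with 1 gradient left out are not given here or below, so such calls are not set beside them. With every fraction weighted equally the change of mt-Nd4 was 1.55 (adjusted p = 0.0757), and mt-Nd6, at 0.31 in the reported fit, was called in its place at 2.89 (adjusted p = 0.00464), beside 3.34% of all genes in either direction.

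In LPS+ET+KU versus LPS the called member was mt-Nd2. Its log2 ratio of heavy polysome to monosome CPM was -3.18, -3.48, -3.03 and -3.78 in LPS, -2.92, -2.38, -3.33 and -3.26 under LPS+ET and -1.69, -1.39, -2.36 and -2.44 under LPS+ET+KU. All 4 LPS+ET+KU gradients lay above every LPS gradient, whereas LPS and LPS+ET overlapped. The fitted change was 1.27 ± 0.25 (edgeR adjusted p = 0.000712), where 1.19% of all genes were called in this direction, and it was called with any 1 gradient left out (1.08 to 1.47). mt-Nd1 was called beside it when the LPS+ET gradient of pool LUL16, LUL17 or LUL18 or the LPS+ET+KU gradient of pool LUL17 or LUL18 was left out, and mt-Nd4 too in the first of these cases. In heavy polysomes mt-Nd2 was at 37, 27.2, 54.6 and 37.2 CPM in LPS and at 145, 31.5, 92.6 and 73.7 CPM under LPS+ET+KU, and in monosomes at 336, 303, 446 and 513 CPM against 467, 82.8, 477 and 399 CPM. Without the term for the gradient it was not called (1.14 ± 0.62, adjusted p = 0.513), beside 0.0453% of all genes. With equal weight for fractions it was called together with mt-Nd6 (2.67, adjusted p = 0.00848), beside 3.12% of all genes in either direction.

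The other members had positive changes that did not pass. In LPS+ET versus LPS the changes were 1.01 ± 0.31 for mt-Cytb (edgeR adjusted p = 0.0288), 0.55 for mt-Nd1, 0.32 for mt-Nd2, 0.61 for mt-Nd5, 0.31 for mt-Nd6 and 0.32 for mt-Co1. For LPS+ET+KU versus LPS they were 1.15 ± 0.32 for mt-Nd4 (edgeR adjusted p = 0.0146), 0.99 ± 0.27 for mt-Nd1 (edgeR adjusted p = 0.0114), 0.85 for mt-Cytb, 0.77 for mt-Co1, 0.55 for mt-Nd5 and 0.39 for mt-Nd6. The median over the 7 was 0.55 and 0.85 in the 2 contrasts, which share the LPS gradients, against 0.01 and -0.03 over all genes. The contrast of LPS+ET+KU with LPS+ET, groups that differ in the inhibitor and in the labelled hours of LPS (47 h and 48 h), called 0 of 7 (0.181% of all genes). Its largest value was 0.95 ± 0.25 for mt-Nd2 (edgeR adjusted p = 0.0574). Without pool LUL16 mt-Nd2 passed there, at 0.97 (adjusted p = 0.0078), beside 0.286% of all genes. The row of mt-Tw, beside the end of mt-Nd2, was also called in LPS+ET+KU versus LPS, with a change of 1.34 ± 0.35 (edgeR adjusted p = 0.00919).

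Within single classes edgeR called 0 of 7 members in each contrast. At an unadjusted p under 0.05, mt-Co1 and mt-Nd6 passed in heavy polysomes of both contrasts with LPS and mt-Nd2 in those of LPS+ET+KU versus LPS, and 0 members passed in light polysomes or monosomes. In heavy polysomes 9.69% of 11368 genes were called in LPS+ET versus LPS, 7.95% in LPS+ET+KU versus LPS and 0.572% in LPS+ET+KU versus LPS+ET. In light polysomes the shares were 10.6%, 7.13% and 0.292% of 9922 genes, and in monosomes 9.52%, 5.96% and 0.213% of 8932 genes. The nearest to the threshold were the scarce mRNAs of the heavy polysomes. In light polysomes mt-Nd2 was at 84.9, 59.9, 129.6 and 129 CPM in LPS and at 173, 203, 196 and 223 CPM under LPS+ET, higher without overlap, as were 15.5% of genes. mt-Cytb was at 15124, 11223, 23960.0 and 26869 CPM in light polysomes of LPS and at 19863, 6075, 31959 and 40422 CPM under LPS+ET, higher in every pool but LUL16.

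In heavy polysomes mt-Co1 was at 12.8, 10.6, 23.6 and 19.3 CPM in LPS, at 27.3, 38, 27.4 and 31.4 CPM under LPS+ET and at 57.5, 24.8, 40.1 and 36.3 CPM under LPS+ET+KU. The LPS gradients lay below all others, as was so for 10.9% of genes under LPS+ET and 16.8% under LPS+ET+KU. The fold changes were 0.83 ± 0.29 (edgeR adjusted p = 0.0603) and 1.07 ± 0.29 (edgeR adjusted p = 0.0204).

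mt-Nd6 was at 6.54, 3.94, 10.9 and 5.88 CPM in heavy polysomes of LPS, at 17.5, 10.8, 17.3 and 13.3 CPM under LPS+ET and at 26.5, 7.07, 21.3 and 12.4 CPM under LPS+ET+KU. It was higher under etoposide in every pool, and the ranges overlapped. The fold changes were 1.07 ± 0.37 (edgeR adjusted p = 0.0558) and 1.12 ± 0.36 (edgeR adjusted p = 0.0445). With the pool as a replicate block mt-Nd6 passed in both, at 1.05 (adjusted p = 0.00268) and 1.07 (adjusted p = 0.00204), and mt-Co1 in LPS+ET+KU versus LPS at 1.09 (adjusted p = 0.00482), beside 20.6% and 21.4% of all genes. Under the block mt-Co1 also passed in monosomes of LPS+ET versus LPS (0.58, adjusted p = 0.00285, beside 24.6% of genes), and mt-Nd1 fell by 1.32 in monosomes of LPS+ET+KU versus LPS (adjusted p = 0.00661, beside 23.2%). Without pool LUL16, mt-Co1 (1.07, adjusted p = 0.00973) and mt-Nd2 (1.08, adjusted p = 0.00715) passed in heavy polysomes of LPS+ET+KU versus LPS, beside 13.4% of genes. In light polysomes mt-Nd6 passed without that pool in both contrasts with LPS, at 1.04 (adjusted p = 0.00868) beside 11.5% of genes and at 1.18 (adjusted p = 0.0065) beside 7.42%. With equal weight for fractions mt-Nd6 passed in heavy polysomes of LPS+ET versus LPS (1.84, adjusted p = 0.00696, beside 6.69% of genes), and mt-Nd6 (2.05, adjusted p = 0.00383) and mt-Co1 (1.46, adjusted p = 0.00608) did in those of LPS+ET+KU versus LPS, beside 6.34%. With only LPS+ET+KU of pool LUL16 left out, mt-Co1, mt-Nd2 and mt-Nd6 were called in heavy polysomes of LPS+ET+KU versus LPS, with no share of all genes to set beside them.

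The whole profile was compared with a model of fraction, treatment and their interaction on the libraries of single fractions from the gradients being compared, set against fraction alone. In each contrast with LPS 3 of 7 members passed, a number not far from the share of all genes given beside them. In LPS+ET versus LPS, edgeR called mt-Nd2 (adjusted p = 5.88e-05), mt-Nd6 (adjusted p = 2.27e-08) and mt-Co1 (adjusted p = 6.78e-05), beside 31% of all genes. For LPS+ET+KU versus LPS it called mt-Nd2 (adjusted p = 0.00638), mt-Nd6 (adjusted p = 0.00257) and mt-Co1 (adjusted p = 6.94e-06), beside 32.7%. For LPS+ET+KU versus LPS+ET 0 of 7 were called, beside 8.01%. For mt-Nd1, mt-Nd4 and mt-Cytb the adjusted p was 0.230 to 0.981 in the contrasts with LPS.

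This model treats the libraries of a gradient as independent and does not part a change of level from a change of profile. The interaction tested alone called 0 members in each contrast, beside 1.37% of all genes in LPS+ET versus LPS, 3.29% in LPS+ET+KU versus LPS and 1.05% between the etoposide groups. With a term for each gradient it called mt-Nd4 and mt-Nd6 in LPS+ET versus LPS, beside 5.72% of genes, mt-Nd2, mt-Nd5 and mt-Co1 in LPS+ET+KU versus LPS, beside 11%, and mt-Nd6 between the etoposide groups, beside 3.63%. For LPS+ET+KU versus LPS, fits with 1 gradient left out have no share of all genes to set beside their calls. Only mt-Co1 was called without the LPS gradient of pool LUL15, LUL16 or LUL18 or the LPS+ET+KU gradient of pool LUL15, LUL17 or LUL18. Without the LPS+ET+KU gradient of pool LUL16, 4 members were called, mt-Nd5 added. The same 4 were called with all of that pool left out, mt-Nd5 with an adjusted p of 0.000754, beside 30.6% of genes. Between the etoposide groups mt-Nd6 was called without pool LUL16 (adjusted p = 0.000501, beside 7.68% of genes). With the pool as a replicate block the full model called mt-Nd2, mt-Nd4, mt-Nd5, mt-Nd6 and mt-Co1 in LPS+ET versus LPS, beside 41.7% of genes, 4 of these without mt-Nd4 in LPS+ET+KU versus LPS, beside 47%, and mt-Nd6 between the etoposide groups, beside 18.3%.

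Mean fractions were higher under etoposide in most gradients. mt-Nd4 was at 7.31, 6.93, 7.70 and 7.70 in LPS, at 8.20, 9.48, 8.21 and 8.18 under LPS+ET and at 8.58, 10.0, 7.86 and 7.86 under LPS+ET+KU. mt-Cytb was at 7.59, 7.51, 8.06 and 8.16 in LPS, at 8.61, 10.1, 8.43 and 8.31 under LPS+ET and at 9.19, 10.6, 8.28 and 8.27 under LPS+ET+KU. For both, every gradient with etoposide lay above every LPS gradient, and by the widest margin in pool LUL16.

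mt-Nd2 was at 6.57, 6.81, 6.69 and 5.76 in LPS, at 8.12, 8.79, 6.98 and 7.01 under LPS+ET and at 10.0, 12.3, 7.84 and 7.71 under LPS+ET+KU. mt-Nd6 was at 5.59, 8.81, 5.64 and 4.79 in LPS, at 10.3, 11.1, 8.85 and 9.34 under LPS+ET and at 9.41, 12.9, 8.31 and 8.06 under LPS+ET+KU. The within-pool shift of mt-Nd6 from LPS to LPS+ET was 4.74, 2.33, 3.21 and 4.55 fractions, the widest of the 7 on average.

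In all, 4 of 7 members had higher mean fractions under LPS+ET than in LPS without overlap (mt-Nd2, mt-Nd4, mt-Nd6 and mt-Cytb), where 3.31% of 8000 genes did, and 0 of 7 had lower ones, where 7.9% did. In LPS+ET+KU versus LPS it was mt-Nd2, mt-Nd4, mt-Nd5 and mt-Cytb, 4 of 7, beside 5.04% of genes. No member was lower there, where 8.16% of genes were. Between the etoposide groups 0 of 7 were higher (2.96% of genes) or lower (1.71%). mt-Nd1 (6.77, 6.58, 7.09 and 6.75 in LPS, 7.27, 8.23, 7.16 and 6.77 under LPS+ET) and mt-Co1 (6.77, 6.81, 7.32 and 6.59 in LPS, 7.19, 7.83, 6.56 and 6.60 under LPS+ET) overlapped between LPS and LPS+ET.

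These counts depended on the end fractions, on the scale and on pool LUL16. With fractions 5 to 15 alone, mt-Nd4 was the 1 member above LPS without overlap under LPS+ET, beside 4.74% of genes, and 5 members were under LPS+ET+KU, beside 7.5%. With counts in place of CPM, which weights each fraction by its library total, 0 members were higher in either contrast with LPS, beside 0.163% and 0.05% of genes. On that scale mt-Co1 was lower without overlap in LPS+ET+KU versus LPS, beside 21.4% of genes, and mt-Nd4, mt-Nd5 and mt-Cytb were lower in LPS+ET+KU versus LPS+ET, beside 1.99%. Without pool LUL16, 5 members were higher in LPS+ET+KU versus LPS, mt-Nd6 added, beside 9.21% of genes. The totals of the fraction 4 libraries, given above, ranged higher under LPS+ET+KU than in LPS, and the part of library depth in these shifts was not tested.

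The share of CPM in heavy polysomes tells which gradients carried the shift. For mt-Nd4 it was 8.09%, 7.10%, 10.0% and 10.1% in LPS, 15.6%, 39%, 12.5% and 12.0% under LPS+ET and 21.3%, 46.1%, 13.2% and 12.2% under LPS+ET+KU. The share was thus higher under etoposide in every pool, by the least in pools LUL17 and LUL18 and by the most in pool LUL16. For mt-Nd2 the share was 11.9%, 13.3%, 18.3% and 6.48% in LPS, 24%, 34%, 13.1% and 13.3% under LPS+ET and 42.4%, 67.5%, 21.8% and 22.4% under LPS+ET+KU. It was higher under LPS+ET+KU than in LPS in all 4 pools.

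Across the 39 treatment-by-fraction means, the profile of the 7 mRNAs summed was most like those of the nuclear genes Rps26 (Pearson r = 0.961 of log2 mean CPM plus 1), Bola2 (r = 0.954) and Gm10076 (r = 0.939), out of 8000 genes. Rps26 encodes a small-subunit protein of the cytoplasmic ribosome. One by one, the gene most like mt-Nd4 was mt-Cytb (r = 0.970) and the reverse, mt-Nd2 was most like mt-Nd5 (r = 0.913), and mt-Nd5 and mt-Co1 were most like each other (r = 0.948). mt-Nd1 was most like Gm10076 (r = 0.978) and mt-Nd6 most like Actn2 (r = 0.817). Between members r ran from 0.408 to 0.970. These points share libraries and depth, so the values describe the profiles and carry no test.

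Nuclear mRNAs for partners of these proteins, taken from lists of symbols, varied in their place along the gradient. Over all genes tested, 22.9% were called lower in heavy polysomes than in monosomes in LPS, and the share called higher is not given here. In LPS, 12 of 34 nuclear complex I mRNAs were called lower in heavy polysomes than in monosomes and 5 higher (median -0.04), 4 of 9 complex III mRNAs lower and 2 higher (median -0.16), and 8 of 11 complex IV mRNAs lower and 0 higher (median -0.92). All 4 complex II mRNAs were higher (median 0.79), and of 14 ATP synthase mRNAs 5 were lower and 4 higher. Of 69 mitochondrial ribosomal protein mRNAs, 21 were lower and 8 higher (median -0.19), of 10 mRNAs for replication and transcription of mitochondrial DNA 1 and 2, of 21 for mitochondrial RNA processing and decay 5 and 6, and of 15 mitochondrial translation factors 2 and 2. Of these lists, the cytosolic ribosomal protein mRNAs had the lowest median, with 67 of 70 lower, 2 higher and a median of -3.07.

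Few of these nuclear mRNAs changed in abundance over all fractions. Of all genes, 12.7% were called in LPS+ET versus LPS and 10.7% in LPS+ET+KU versus LPS. For LPS+ET versus LPS, Polrmt, the RNA polymerase of mitochondria, rose (log2 fold change 1.10 ± 0.17, edgeR adjusted p = 0.000375), and Mtfmt, which formylates the initiator tRNA of mitochondria, fell (-1.14 ± 0.24, edgeR adjusted p = 0.00355), as did Mrpl17, a protein of the mitochondrial ribosome (-1.01 ± 0.20, edgeR adjusted p = 0.00259). Of the cytosolic ribosomal protein list Rps27l rose (1.17 ± 0.19, edgeR adjusted p = 0.000689). None of the nuclear mRNAs of complexes I, II, III and IV or of ATP synthase passed in that contrast. In LPS+ET+KU versus LPS, Uqcrb of complex III fell (-0.80 ± 0.16, edgeR adjusted p = 0.00407), and so did Fastkd5, a factor of mitochondrial RNA processing (-0.86 ± 0.18, edgeR adjusted p = 0.00508), and the mitochondrial ribosomal protein mRNAs Mrpl18 (-0.84 ± 0.17, edgeR adjusted p = 0.0037) and Mrpl36 (-0.71 ± 0.15, edgeR adjusted p = 0.00568). No mRNA of these lists passed in LPS+ET+KU versus LPS+ET, where 0.455% of all genes did.

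Calls for a change of the heavy-to-monosome difference were few in the lists of mitochondrial function, and the genes named for it were picked after their values were seen. For LPS+ET versus LPS, Ndufa7 of complex I (1.01) and Uqcr10 of complex III (0.97) had their heavy-to-monosome difference raised, Mrpl24 had it lowered (-1.09), and 15 of 70 cytosolic ribosomal protein mRNAs had it lowered and 0 raised, where 3.47% of all genes had it lowered. In LPS+ET+KU versus LPS, Atp5b (-0.92) and Atp5c1 (-1.02) of ATP synthase, Fastkd5 (-1.53) and Mrps9 (-0.85) had it lowered, as had 14 of 70 cytosolic ribosomal protein mRNAs, where 4.2% of all genes did. The list medians were 0.22 for complex I and -0.48 for cytosolic ribosomal proteins in LPS+ET versus LPS, beside 0.55 for the 7 mitochondrial mRNAs.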

How the data were processed

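The authors counted 3′ end tags: RNA from each gradient fraction was primed with a barcoded oligo-dT primer, PCR duplicates were removed, A tracts trimmed, reads aligned to GRCm38 with TopHat2 2.0.12, and tags at poly(A) sites counted by strand per Ensembl gene, and the counts were deposited without normalisation (tools as in the submitters' processing notes, which also name HTSeq and DESeq2 1.6.3). The table had 157 columns, of which 79 matched 1 sample by name and 78, of pools LUL16 and LUL18, matched a treatment and fraction but not 1 sample. Depth was 14724 to 4170688 counts per fraction library and 6404957 to 21449781 per gradient, and counting intervals were not computed because the spread between gradients gave the error. Members were taken by gene name, with every member present named. Of nuclear lists, at most the 3 genes with the smallest adjusted p per list and contrast were named, and of profiles the 3 nuclear genes most like the summed members and 1 gene for each member. The members and lists were chosen with earlier results of these data known.

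Counts were summed over fractions 4 to 16 or over a class per gradient and tested with edgeR 4.0.16 (TMM, filterByExpr, glmQLFTest) in R 4.3.3 over all genes, with Benjamini-Hochberg adjustment and calls at an adjusted p of 0.01. Treatment was the term, all 12 gradients shared the fit, and heavy polysomes were compared with monosomes with a term for each gradient. The fit was run on simulated libraries drawn independently, with no gradient or pool effect. That run does not show how the fit behaves under such effects. The pool codes were taken to pair the gradients. Deviations from treatment means correlated at 0.353 to 0.894 within pools (12 of 12 pairs above 0.1). Between pools they correlated at -0.672 to 0.403 (median -0.322, 8 of 36 pairs above 0.1), so the ranges overlapped. Such deviations cancel within a treatment, which pulls the correlations between pools negative. The pool names come from the column names. Alternatives were DESeq2 1.42.0, its size factors in edgeR, only the 8 gradients compared, calls at 0.05, library totals, TMM from nuclear genes, no filter, equal weight for fractions, the pool as a replicate block and each gradient left out. Leaving out pool LUL16 or fraction 4, and the alternatives for the mean fraction, were chosen after seeing the data. The fraction 17 library of LPS (777 counts) entered no comparison. Each listed mRNA without a row was not analysed here.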

Additional observations from a re-analysis of the deposited data

Results flagged for a closer look

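Each group of 4 gradients was checked for a gradient far from the other 3 by Dixon's ratio, for level, mean fraction and share of CPM in fractions 11 to 16. Of 63 groups, 6 held such a gradient, and chance gives about 1 in 20.

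The LPS+ET+KU gradient of pool LUL16 stood apart for mt-Nd5, at 128 CPM over all fractions. The LPS+ET gradient of the same pool stood apart for the mean fraction of mt-Cytb (10.1) and of mt-Nd4 (9.48), and for the share of their CPM in fractions 11 to 16, which was 46.4% for mt-Cytb and 39% for mt-Nd4. The LPS gradient of pool LUL17 stood apart for the share of mt-Nd5 in these fractions, at 15.4%.

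The LPS fraction 17 library of pool LUL16, which entered no comparison, held 777 counts in all. It had 5 counts of mt-Cytb, above the floor of 3 counts set for flagging, and 3 each of mt-Nd1 and mt-Nd4.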

How the results depend on the processing

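Over 27 counts of members, 420 recomputed values were obtained, of which 373 lay within 1.5 times the reported count and 47 did not; of 1240 recomputed member values 6 changed sign. The cause of these changes was not tested. Depth limits mt-Nd6 most, with 91 to 522 counts per gradient.

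With the pool as a replicate block, members called numbered 2 for all fractions in LPS+ET+KU versus LPS, 1 and 2 for heavy polysomes and 1 and 1 for monosomes in LPS+ET and LPS+ET+KU versus LPS, and 5, 4 and 1 for the whole profile in LPS+ET versus LPS, LPS+ET+KU versus LPS and LPS+ET+KU versus LPS+ET. Without a replicate block for gradients the change of the heavy-to-monosome difference called 0 members in both contrasts with LPS. The block changed the count in no other of these contrasts by over 1.5 times.

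In LPS+ET+KU versus LPS this change called 2 members with equal weight (mt-Nd2 and mt-Nd6), beside 3.12% of all genes, 2 without fraction 4 (mt-Nd1 and mt-Nd2), beside 5.07%, and 3 with library totals or TMM from nuclear genes (mt-Nd1, mt-Nd2 and mt-Nd4), beside 4.23% and 5.13%. In LPS+ET versus LPS equal weight called 1 member as before, but mt-Nd6 (2.89) in place of mt-Nd4, beside 3.34%. Equal weight called 1 member in heavy polysomes of LPS+ET (6.69% of genes) and 2 of LPS+ET+KU (6.34%). Without pool LUL16 the counts were 1 for all fractions, 2 for heavy and 1 for light polysomes in LPS+ET+KU versus LPS, 1 for light polysomes in LPS+ET versus LPS, and 1 for the change and 1 for the whole profile between the etoposide groups. The interaction alone called 0 in both contrasts with LPS, and 1 between the etoposide groups with a term for each gradient. Mean fractions higher without overlap numbered 1 (LPS+ET) with fractions 5 to 15 only and 0 in both contrasts with LPS with counts in place of CPM, which gave lower ones under LPS+ET+KU for 1 member versus LPS (21.4% of genes) and 3 versus LPS+ET (1.99%).

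With 1 gradient left out, calls ranged from 0 to 1 for all fractions, 1 to 3 for the change, 0 to 3 for heavy polysomes and 1 to 4 for the whole profile in LPS+ET+KU versus LPS, from 0 to 2 for the change and 2 to 3 for the whole profile in LPS+ET versus LPS, and from 0 to 1 for both between the etoposide groups. The shares of all genes called in these fits are not given, so a gain of members is not set against them. The LPS+ET+KU gradient of pool LUL16 gave the highest count for all fractions, heavy polysomes and the whole profile, and the LPS+ET gradient of that pool for the change in LPS+ET+KU. Over all fractions in LPS+ET versus LPS, mt-Nd5 (0.04) ranged from -0.12 to 0.18 and was -0.0013 with no filter, and mt-Cytb (-0.19) ranged from -0.50 to 0.054, positive without LPS+ET of pool LUL16. In LPS+ET+KU versus LPS, mt-Nd1 (-0.28) ranged from -0.58 to 0.090, positive without LPS+ET+KU of pool LUL16.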
